A study of Homo sapiens with 8 samples.

Results

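Cholesterol and fatty acid synthesis was followed through 33 genes after silencing of KHSRP in KYSE850, a permanent cell line of human esophageal squamous cell carcinoma (ESCC). The genes are 7 of the mevalonate pathway, 10 of the later sterol steps, 4 of the control of SREBP, 8 of fatty acid and glycerolipid synthesis and 4 of sterol transport and export. They were chosen by function, but with earlier results of these data known. Each microarray probe whose RefSeq accession belongs to one of them was taken, which gave 41 probes. The arrays named 20249 genes in all, and 12125 of these had at least 1 probe bright enough to test. All 33 members had such a probe, and 39 of their 41 probes were tested.

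mRNA was measured on 8 one-colour Agilent arrays. Cells given control siRNA were hybridised to 4 of them, and cells given siRNA against KHSRP to the other 4. KHSRP encodes an RNA-binding protein that acts on mRNA decay and on miRNA maturation. All arrays came from this 1 cell line, both groups were transfected, and the study used 3 KHSRP siRNAs, of which the labels do not say which went onto which array. The labels also do not say whether the samples of a group were separate cultures, so that p-values measure only the spread between these samples, which may be technical.

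Cells make cholesterol from acetyl-CoA through mevalonate, the isoprenoid diphosphates, squalene and lanosterol. When sterol in the endoplasmic reticulum runs low, the protein SCAP escorts SREBP transcription factors to the Golgi, where they are cut free to activate these genes, whereas INSIG proteins hold SCAP back when sterol is plentiful. SREBF1 encodes SREBPs that also drive fatty acid synthesis, and ABCA1 and ABCG1, which export sterol, respond to sterol excess through liver X receptors.

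The measurements were of similar quality on all 8 arrays. Between 45.1% and 49.4% of the 42405 probes were well above background on an array, and the 75th percentile of the signal was 87.7 to 117. At its brighter probe, KHSRP itself was at 9.66% of control, a log2 fold change of -3.37 (SE 0.16, n = 4 per group, limma adjusted p = 5.95e-05), and each array was on the side of its label. Of 12 markers of squamous epithelium, 12 had a tested probe. Of 15 markers of blood, vessel, stroma, liver, fat, muscle and glia, 9 were well above background on no array and 2 had a tested probe. Control and KHSRP siRNA arrays of replicates 1 and 2 shared a slide, as did those of replicates 3 and 4, so that slide and siRNA were not confounded.

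Replicate numbers matter for these genes. In the scanner files the arrays are numbered 1 to 4 in each group, but the columns of the series matrix, the authors' table of log2 values, hold the scanner values of KHSRP siRNA replicates 3 and 4 under each other's numbers. Replicates are named here as in the scanner files. Arrays that share a number in the series matrix are called a pair: control 1 with KHSRP 1, control 2 with KHSRP 2, control 3 with KHSRP 4, and control 4 with KHSRP 3. The labels do not say what a number marks, and which numbering is right was not settled.

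The first question was whether these genes changed with KHSRP siRNA. Group means of the log2 level, which is the log2 signal relative to the 75th percentile of the array, were compared with limma, adjusted by Benjamini-Hochberg over the 18761 tested probes, and genes with an adjusted p under 0.05 were called. The brightest tested probe stood for its gene. IDI1, which makes dimethylallyl diphosphate from isopentenyl diphosphate, fell and was the 1 member called, whereas 6.19% of all genes were called and 4.06% were called lower. The median log2 fold change of the 33 members was -0.03, beside 0.01 over all 12125 genes. Of the members, 16 lay above 0 and 17 below, and their lower and upper quartiles were -0.25 and 0.19, beside -0.21 and 0.20 for all genes. A change over 1.5-fold was seen for 4 members, namely IDI1, STARD4, TM7SF2 and SQLE, which is near the 11.4% of all genes.

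The count depended on how arrays were matched. The pairing was chosen because these same arrays deviated alike under it, so that limma p-values with pairs may be too small. With the pair as a block in the fit, 11 of 33 members were called, 4 higher and 7 lower, but so were 33.0% of all genes (15.9% higher and 17.1% lower). With the scanner numbers as the block, 0 of 33 members and 0.874% of all genes were called by limma, while 4 members (12.1%), beside 20.8% of all genes, had an unadjusted p under 0.05 in the fit without a block. Hence the members were called about as often as other genes in the paired fit and no more often than others in the fit without it. With the scanner block, the limma adjusted p was 0.0861 for IDI1, 0.240 for STARD4, 0.714 for TM7SF2 and 0.531 for SQLE. The groups of arrays did not overlap for 5 members (15.2%), beside 16.2% of all genes. The difference had the same direction in 4 of 4 pairs for 17 members (51.5%), 8 higher and 9 lower, beside 55.7% of all genes.

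**Figure D1:**
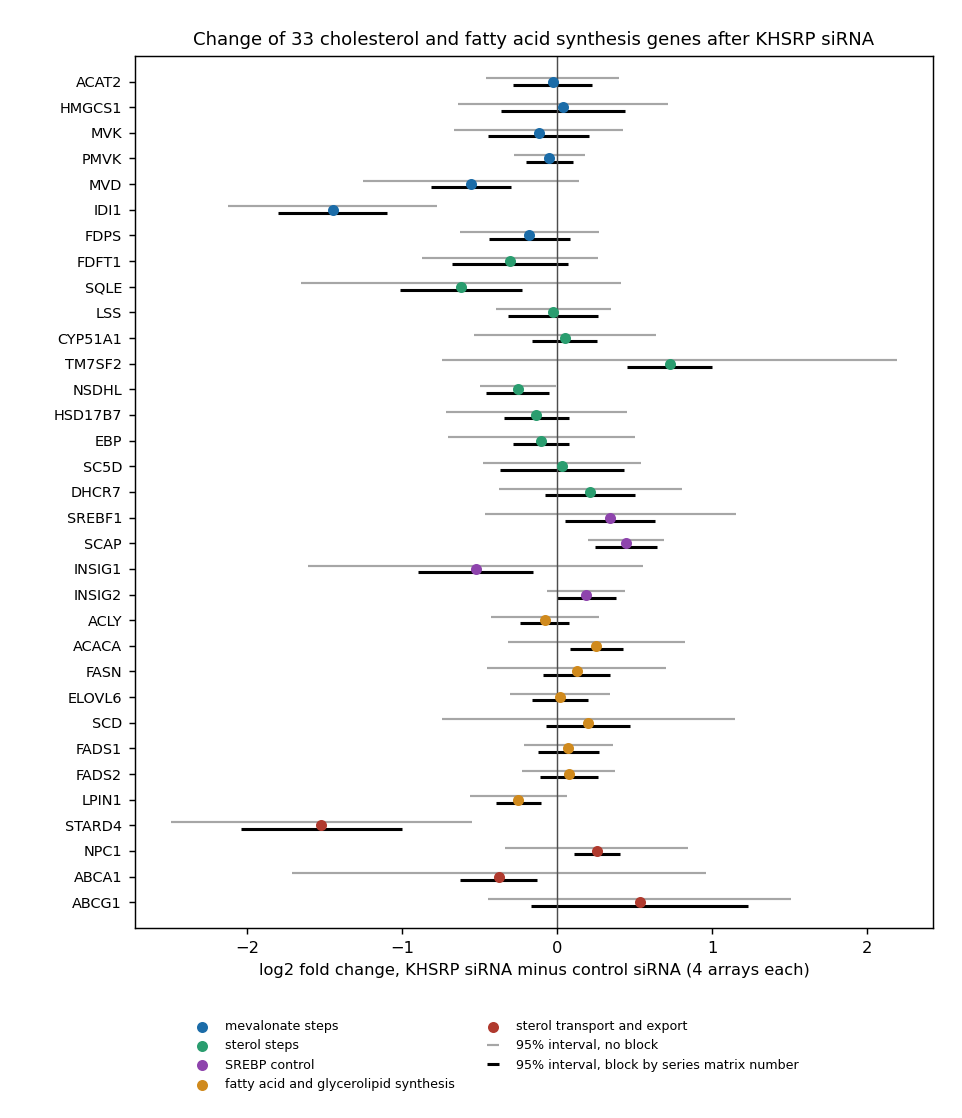
Log2 fold change of the 33 members (KHSRP siRNA minus control siRNA, 4 arrays each), coloured by role, at the probe that stands for the gene. Grey bars are 95% intervals of the fit without a block and black bars those with the series matrix number as a block. IDI1 at -1.45 and STARD4 at -1.52 lie farthest from 0 with this background correction, and the bar of TM7SF2 shrinks most with the block.

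In the mevalonate pathway, IDI1 was lower on each KHSRP siRNA array than on any control array. Its log2 level at probe A_24_P103886 was 0.79, 1.14, 0.78 and 1.91 on control arrays 1 to 4. It was -0.86, -0.15, 0.10 and -0.25 on KHSRP siRNA arrays 1 to 4. The groups were thus apart, with control 4 the highest and KHSRP 1 the lowest. The log2 fold change was -1.45 (SE 0.29, 95% interval -2.12 to -0.77), or 36.7% of control, with a limma adjusted p of 0.0269 without a block and 0.0028 with pairs. It was -1.47 on the first slide and -1.42 on the second. In a bulk sample, fewer cells with the mRNA and less mRNA per cell cannot be told apart. Without control 1, control 2, KHSRP 1, KHSRP 2 or KHSRP 4 the limma adjusted p passed 0.05, reaching 0.0756, and on leaving out any of the other 3 arrays singly it stayed under it. The log2 fold change stayed between -1.58 and -1.20 in these settings, and was -0.97 with normexp background correction.

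The other 6 mevalonate genes were not called without a block. MVD, the decarboxylase that yields isopentenyl diphosphate, differed by -0.56 on the log2 scale (SE 0.31, limma adjusted p = 0.379), was lower in 4 of 4 pairs and had a limma adjusted p of 0.0142 with the block. Its groups overlapped, since control 3 was at 0.91 and KHSRP 3 at 1.60. HMGCS1, which makes HMG-CoA, differed by 0.04 (95% interval -0.64 to 0.71), and ACAT2, MVK, PMVK and FDPS, which supply acetoacetyl-CoA, phosphorylate mevalonate and build farnesyl diphosphate, by -0.03, -0.12, -0.05 and -0.18. The narrowest interval of any member was that of PMVK, which reached 0.23 to either side of its log2 fold change. The median half-width over the 33 members was 0.58, so that smaller changes could not be detected for many of them. These intervals are not adjusted for the number of probes, so a call needed a change larger than the half-width. SCAP, at 0.44 with a half-width of 0.24, was not called.

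Among the 10 genes of the later sterol steps none was called by limma without a block, and NSDHL was the 1 with an unadjusted p under 0.05, beside 20.8% of all genes. SQLE (probe A_23_P146284), the squalene epoxidase, was at 2.66, 1.08, 2.80 and 1.85 on control arrays 1 to 4. It was at 2.05, 0.99, 0.79 and 2.09 on KHSRP siRNA arrays 1 to 4. The groups overlapped widely, with control 2 nearly as low as the lowest KHSRP siRNA arrays. The log2 difference of -0.62 (SE 0.45) had a limma adjusted p of 0.534 without a block, and of 0.0354 with pairs, in each of which the KHSRP siRNA array was the lower one. TM7SF2 (probe A_23_P116037), a sterol reductase, had the widest spread of all members. It was at -1.12, -0.03, -1.74 and 0.70 on control arrays 1 to 4 and at -0.39, 1.01, 1.11 and -1.02 on KHSRP siRNA arrays 1 to 4. The levels within each group thus spanned more than the groups differed, and control 4 was higher than KHSRP 1 and KHSRP 4. The log2 difference was 0.73 (SE 0.64, limma adjusted p = 0.629), but the 4 pair differences were 0.73, 1.04, 0.72 and 0.41 and the limma adjusted p with the block was 0.0081.

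NSDHL, which removes methyl groups from the sterol ring, showed the opposite layout. Its control arrays were at 3.83, 3.84, 3.82 and 3.86 and its KHSRP siRNA arrays at 3.66, 3.51, 3.42 and 3.73, so that the groups did not overlap. The log2 difference of -0.25 (SE 0.11) nevertheless had a limma adjusted p of 0.234 without a block and 0.0633 with pairs. The remaining 7 genes, FDFT1 (squalene synthase), LSS (lanosterol synthase), CYP51A1, HSD17B7, EBP, SC5D and DHCR7, which demethylate, isomerise, desaturate and reduce the sterol, differed by -0.30 to 0.21 and were called in neither fit. LSS had a dimmer probe at which the difference was -0.76 (SE 0.34, limma adjusted p = 0.269), against -0.03 at the brighter one. The 3 probes of HSD17B7 gave -0.13, -0.16 and -0.24, and since a near-identical pseudogene copy exists, they may also report that transcript.

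Of the genes that control SREBP, SCAP (probe A_23_P252825) was higher on all KHSRP siRNA arrays than on any control array. Its log2 level was 2.19, 2.09, 2.11 and 2.09 on control arrays 1 to 4 and 2.51, 2.72, 2.61 and 2.42 on KHSRP siRNA arrays 1 to 4. The groups did not overlap, and their means differed by more than the range within either. The log2 difference was 0.44 (SE 0.11, 95% interval 0.20 to 0.69), with a limma adjusted p of 0.0501, just outside the threshold, and 0.0133 with pairs. It was called in 10 of 23 alternative settings. By the methods' t-test with Benjamini-Hochberg adjustment it was the 1 member called, in place of IDI1. The values of SCAP, NSDHL, ABCG1, SCD and SREBF1 are given here after they were seen.

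INSIG1 (probe A_33_P3219090), which retains SCAP and is itself switched on by SREBP, was at 0.23, 0.40, 0.14 and 2.04 on control arrays 1 to 4 and at -0.34, -0.18, 1.11 and 0.12 on KHSRP siRNA arrays 1 to 4. Control 4 and its pair KHSRP 3 stood above all other arrays, and the groups overlapped. The log2 difference of -0.52 (SE 0.47) had a limma adjusted p of 0.638 without a block and 0.0474 with pairs. Without control 4 it was -0.08. SREBF1 differed by 0.34 (SE 0.35, limma adjusted p = 0.692) at its brighter probe and by -0.04 at its dimmer one. The 2 probes of INSIG2, the other INSIG gene, disagreed. The brighter gave 0.19, with groups that did not overlap but came within 0.01 of each other. The dimmer gave -0.64 (SE 0.27), with limma adjusted p of 0.236 without a block and 0.0055 with pairs. No direction for INSIG2 can be taken from these probes.

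None of the 8 genes of fatty acid and glycerolipid synthesis was called by limma without a block, and 0 of 8 had an unadjusted p under 0.05, a mark that 20.8% of all genes passed. ACLY, ACACA and FASN, which lead from citrate to palmitate, differed by -0.08, 0.25 and 0.13 on the log2 scale. SCD, the desaturase that makes oleate, differed by 0.20 (SE 0.41), the elongase ELOVL6 by 0.02, and the desaturases FADS1 and FADS2 by 0.07 each. LPIN1, a phosphatidate phosphatase, differed by -0.25 (SE 0.14, limma adjusted p = 0.380). With pairs, ACACA was called higher (limma adjusted p = 0.0403; 0.0072 at its dimmer probe, where the difference was 0.52) and LPIN1 lower (limma adjusted p = 0.0273).

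Among the genes of sterol transport, the difference of STARD4 was the widest, and its size depended on the background correction. STARD4 (probe A_23_P327519), which carries cholesterol between membranes inside the cell, was at -0.73, -0.77, -1.14 and 0.03 on control arrays 1 to 4. It was at -2.77, -1.61, -1.28 and -3.03 on KHSRP siRNA arrays 1 to 4, and on 1 of these it was not well above background. The groups did not overlap, with KHSRP 3 closest to the control arrays. The log2 difference was -1.52 (SE 0.43, 95% interval -2.49 to -0.55), but its limma adjusted p was 0.0808 without a block, and 0.0063 with pairs. Without KHSRP 3 it was -1.82, with a limma adjusted p of 0.0483, and with normexp background correction it was -0.47, with a limma adjusted p of 0.176.

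Of the exporters, ABCA1 was spread widely within both groups and ABCG1 only within the KHSRP siRNA group. ABCA1 (probe A_24_P235429) was at 0.57, -0.74, 0.96 and -0.72 on control arrays 1 to 4 and at 0.49, -1.29, -1.25 and 0.62 on KHSRP siRNA arrays 1 to 4. In either group 2 arrays were above 0 and 2 well below it, and these were the same pairs. The log2 difference of -0.38 (SE 0.58) had a limma adjusted p of 0.820 without a block and 0.0393 with pairs. ABCG1 was between -2.61 and -2.03 on all control arrays, while KHSRP 1 and KHSRP 4 were at -0.99 and -1.06 and the other two at -2.61 and -2.77 (difference 0.53, SE 0.43, limma adjusted p = 0.585). NPC1, which releases cholesterol from lysosomes, differed by 0.26 (SE 0.26, limma adjusted p = 0.684; 0.0272 with pairs).

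**Figure D2:**
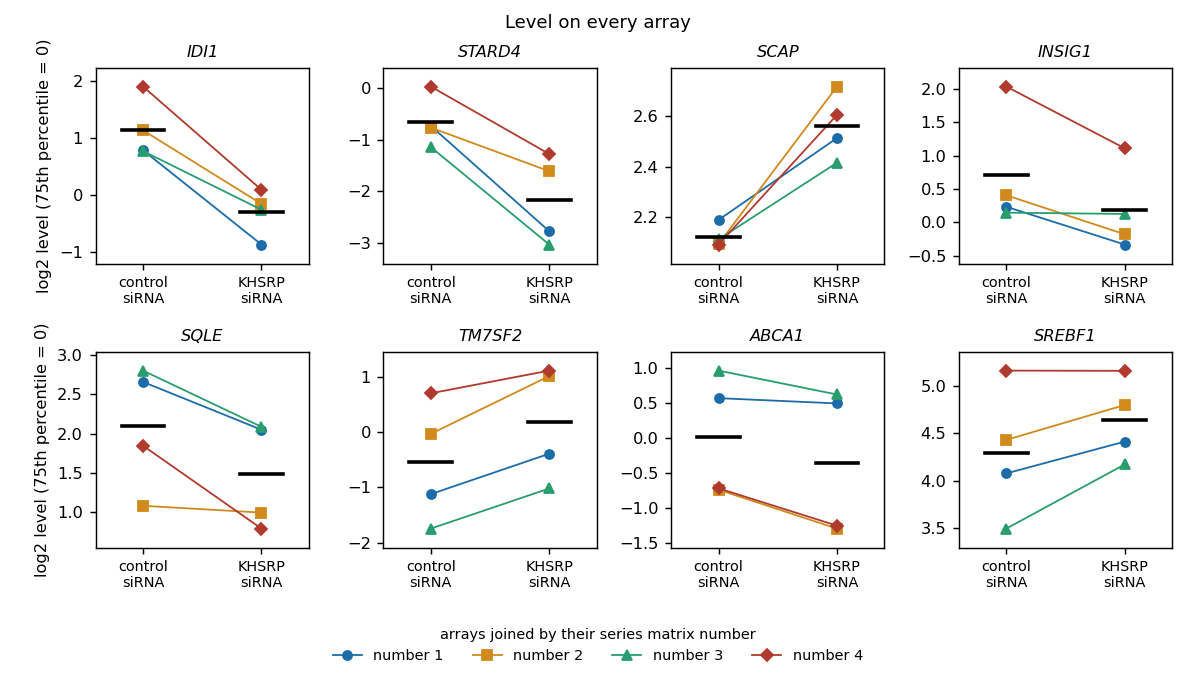
Log2 level (75th percentile of the array = 0) of 8 members on every array, with arrays of the same series matrix number joined and black bars at the group means. Lines of IDI1, STARD4, SQLE, INSIG1 and ABCA1 fall and those of SCAP and TM7SF2 rise in 4 of 4 pairs. Of all genes, 55.7% had the same direction in 4 of 4 pairs. For TM7SF2, ABCA1 and SREBF1, among others, the pairs lie farther apart than the groups.

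The second question was how these genes varied between arrays that had the same siRNA. The SD between arrays within groups had a median of 0.40 on the log2 scale over the 33 members, beside 0.25 over all genes, and 23 of 33 members lay above the latter. The spread ran from 0.07 for PMVK and 0.10 for SCAP to 0.78 for INSIG1, 0.97 for ABCA1 and 1.07 for TM7SF2. No test of this difference was made, since the members share arrays and were chosen with earlier results of these data known.

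**Figure D3:**
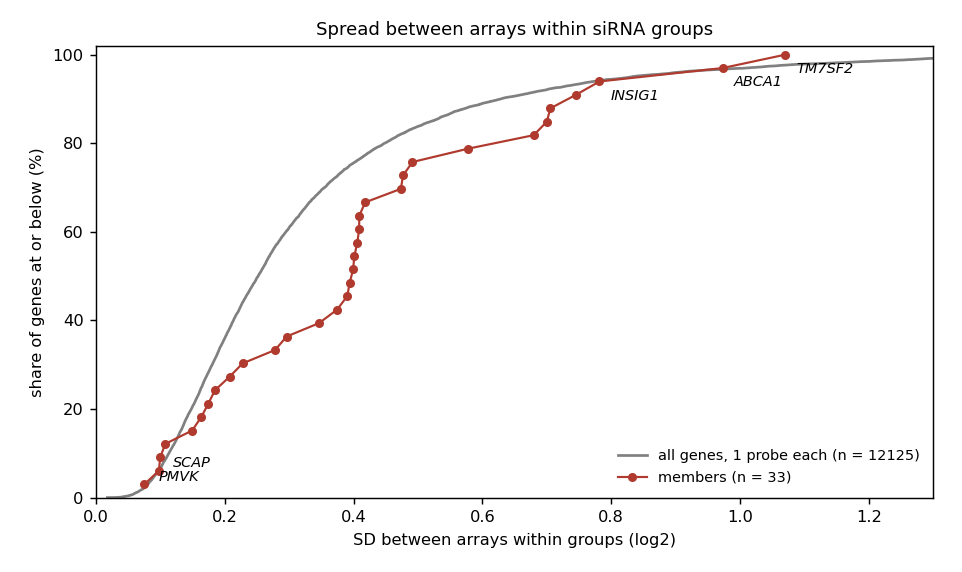
Cumulative share of genes (%) by SD between arrays within siRNA groups (log2 scale), for the 33 members and for all 12125 genes with 1 probe each. The members' median is 0.40 and that of all genes 0.25; PMVK and SCAP are at the low end and TM7SF2, ABCA1 and INSIG1 at the high end.

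Much of the members' variation between arrays of a group lay along 1 shared pattern, in which some members ran against the others. The members' deviations from the mean of the own group were reduced to principal axes. The first axis held 79.3% of the members' within-group variance, beside 65.1% for all tested probes measured on every array. These shares come from sets of very unlike size, and genes with a wide spread count most in them. Its coordinates were 0.48 for control 4, 0.45 for KHSRP 3, 0.22 for KHSRP 2 and 0.20 for control 2. They were -0.22 for control 1, -0.31 for KHSRP 1, -0.36 for KHSRP 4 and -0.46 for control 3. Each slide held arrays on both sides of 0. The axis over all tested probes had the same sign as that of the members on all 8 arrays, so that the pattern was not particular to lipid genes. Control 4 was the highest control array for 24 members and control 3 the lowest for 21, and KHSRP 3 was the highest KHSRP siRNA array for 19.

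On this axis 23 members lay on the side of control 4 and KHSRP 3, and 10 on the other. The former held 6 of 7 mevalonate genes, 6 of 10 of the later sterol steps, 4 of 4 SREBP regulators and 6 of 8 genes of fatty acid and glycerolipid synthesis, but 1 of 4 genes of transport and export, namely STARD4. Those with the most weight were TM7SF2, SCD, STARD4, INSIG1, SREBF1, MVD and IDI1. SCD was at 1.39, 2.15, 0.84 and 2.59 on control arrays 1 to 4 and at 1.56, 2.18, 2.63 and 1.41 on KHSRP siRNA arrays 1 to 4, and 97.5% of its within-group variance lay on the axis. SREBF1 ranged from 3.50 on control 3 to 5.16 on control 4. The opposite side was led by ABCA1, SQLE, ABCG1, NPC1 and EBP, so that the exporters ran against most synthesis genes. SQLE, EBP, NSDHL and SC5D ran against the other 6 enzymes of the later sterol steps, the latter pair with small weights of -0.15 and -0.05. SCAP, FADS1, INSIG2, LPIN1 and SC5D had at most 14.4% of their within-group variance on it.

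**Figure D4:**
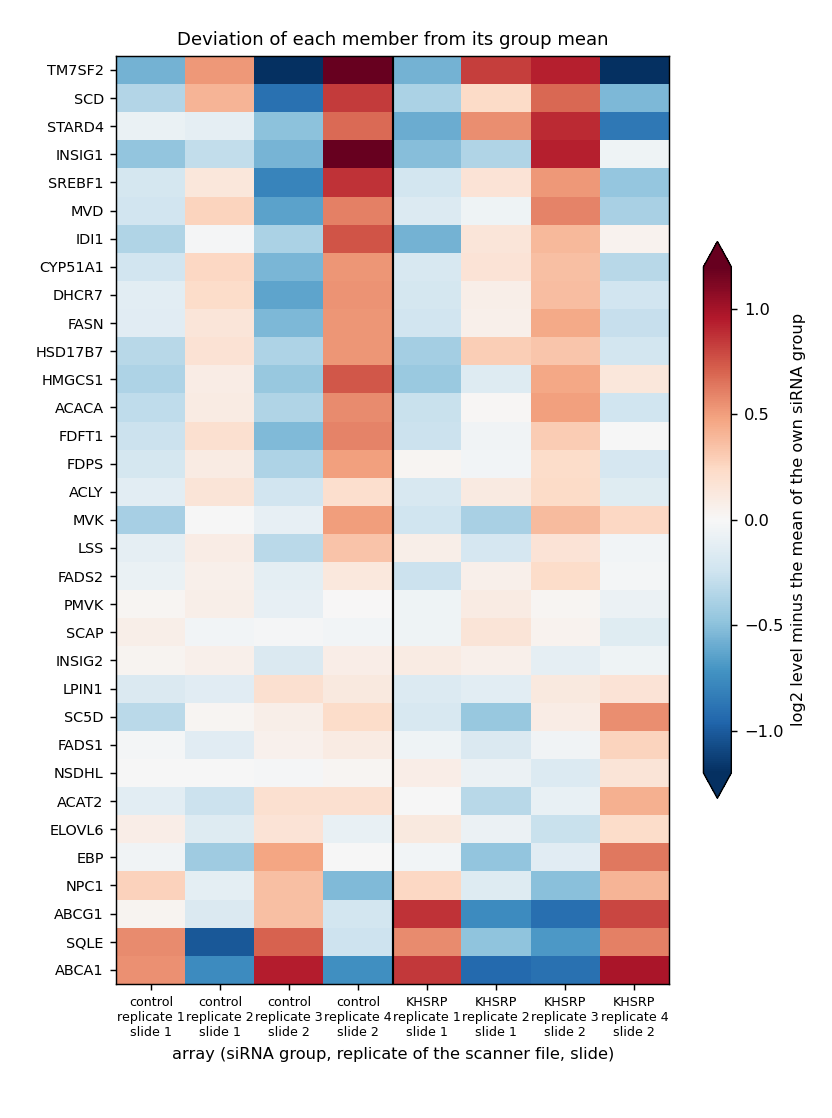
Log2 level of each member minus the mean of its siRNA group, for the 8 arrays (colour scale capped at 1.2 to either side; members ordered by their weight on the first axis). Control 4 and KHSRP 3 are mostly above their group mean in the upper rows and below it for ABCA1, SQLE, ABCG1 and NPC1, and control 3 and KHSRP 4 show the reverse for most of these rows.

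Arrays of a pair deviated alike. Across the 33 members, which are not independent replicates, the deviations of the paired arrays correlated at r = 0.82, 0.71, 0.89 and 0.93 for numbers 1 to 4, and across all tested probes at 0.52, 0.43, 0.83 and 0.84. With the scanner numbers, replicates 3 gave -0.89 and replicates 4 gave -0.74 across the members. The points of each correlation share their arrays, scaling and group means, and deviations within a group of 4 sum to 0. In the paired fit, the standard error shrank for every member, also for those called in neither fit, such as CYP51A1 (from 0.26 to 0.08). Since the pairing was chosen because these same arrays deviated alike, smaller standard errors were largely fixed in advance. TM7SF2, ABCA1, SQLE and MVD are among the members whose call changed. What differed between the pairs was not recorded in the labels and was not tested.

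**Figure D5:**
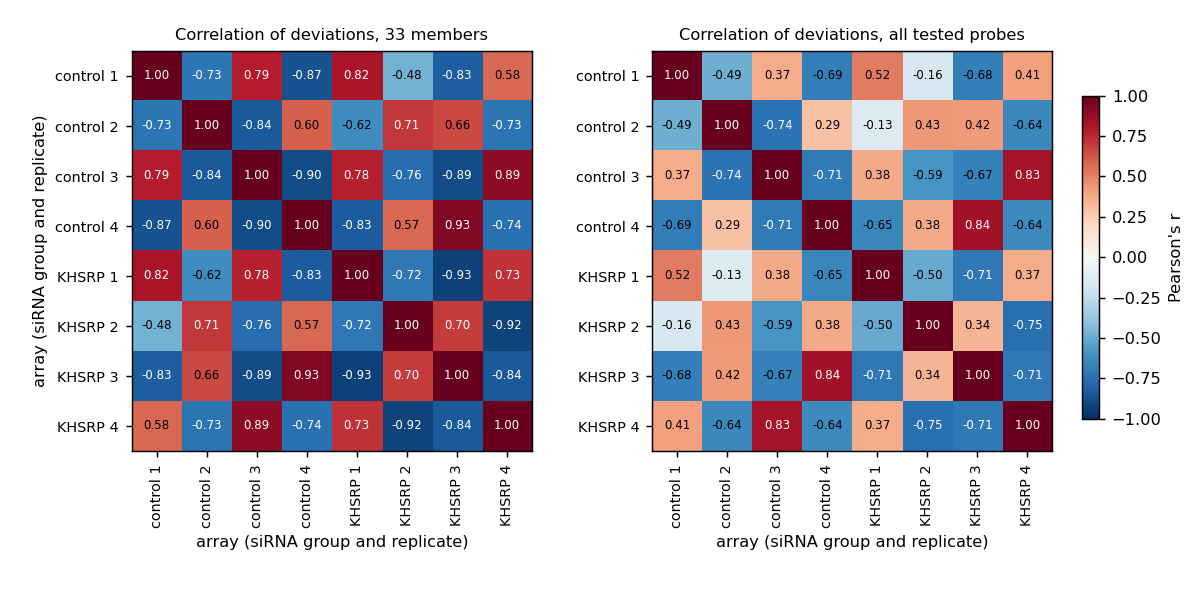
Pearson's r between arrays of the deviations from the group mean, across the 33 members (left) and across all tested probes (right). Control 3 with KHSRP 4 (0.89) and control 4 with KHSRP 3 (0.93) are the highest pairs between groups among the members, and control 3 with KHSRP 3 (-0.89) among the lowest.

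The promoters of the members were also read for 3 short motifs. The pattern between arrays was not particular to lipid genes, and a link between it and promoter letters was not tested. RefSeq promoter sequences (GRCh38.p14, 250 bases before to 50 after the start of the gene) were matched to 28 of 33 members, and none for FDFT1, SQLE, ACAT2, FASN and ABCG1. The CCAAT box, which binds a partner of SREBP (letters CCAAT, either strand), was in 15 of 28 members (53.6%), beside 34.6% of 35116 promoters. Those promoters were not limited to the 12125 genes with a tested probe, whereas every member had such a probe, so the 2 sets are unlike. The E-box CACGTG was in 5 of 28 (17.9%), beside 7.26%. The sterol element written as TCACNCCAC, on either strand, was in 0 of 28, beside 1.13%. No match of one motif overlapped a match of another. The stretches below lie before the start of 5 members with large weight on the axis and of HMGCS1, at the entry to the pathway. Capitals mark a CCAAT box (CCAAT, or ATTGG on the other strand) and, in INSIG1, the E-box. TM7SF2 and INSIG1 hold 1 CCAAT box, HMGCS1, STARD4 and SCD hold 2, and MVD holds 3.
TM7SF2 (chr11:65111788-65111812, plus strand): ccgagcgccgATTGGctggtgtgct
STARD4 (chr5:111512651-111512706, minus strand): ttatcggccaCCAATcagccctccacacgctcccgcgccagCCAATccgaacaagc
SCD (chr10:100346994-100347061, plus strand): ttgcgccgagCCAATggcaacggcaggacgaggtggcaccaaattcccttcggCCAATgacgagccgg
MVD (chr16:88663162-88663260, minus strand): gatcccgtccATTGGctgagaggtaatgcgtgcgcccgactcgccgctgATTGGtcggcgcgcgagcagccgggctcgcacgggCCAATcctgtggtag
HMGCS1 (chr5:43313498-43313577, minus strand): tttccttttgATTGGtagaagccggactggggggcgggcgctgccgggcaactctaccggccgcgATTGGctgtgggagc
INSIG1 (chr7:155297698-155297838, plus strand): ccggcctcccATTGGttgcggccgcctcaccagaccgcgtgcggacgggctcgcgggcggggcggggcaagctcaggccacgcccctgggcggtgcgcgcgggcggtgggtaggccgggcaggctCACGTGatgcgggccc
Of the members with the most weight, SREBF1 and IDI1 held none of the 3 motifs in their windows, and the last 100 bases before the start of IDI1 are given next for comparison.
IDI1 (chr10:1056705-1056804, minus strand): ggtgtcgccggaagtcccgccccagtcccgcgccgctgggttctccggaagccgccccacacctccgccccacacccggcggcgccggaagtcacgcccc
ABCA1, on the opposite side of the axis, held no CCAAT box in its window and 1 E-box. The box did not follow the sides of the axis throughout. EBP, NSDHL and SC5D, on the side of ABCA1, held it, while CYP51A1 and ACACA, on the other side, did not. A match of letters is a description of the sequence and not a site of binding.

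Genes around these pathways were read in the same way. Over 4 further lists, 90 of 96 genes were tested, and 3 were called, all lower. Of all genes, 6.19% were called and 4.06% were called lower. In the list of other sterol genes (28 of 29 tested), PGRMC1, a haem-binding membrane protein, fell by 0.67 on the log2 scale (SE 0.16, limma adjusted p = 0.0455). In the isoprenoid branch (11 of 12 tested), FNTA, the subunit shared by the farnesyl and geranylgeranyl transferases, fell by 1.04 (SE 0.12, limma adjusted p = 0.00293). Control arrays were at a log2 level of 3.31 ± 0.11 (SD, n = 4), against 2.27 ± 0.15 (SD, n = 4) after KHSRP silencing. In fatty acid oxidation (23 of 25 tested), SLC25A20, which carries acylcarnitines into mitochondria, fell by 0.73 (SE 0.14, limma adjusted p = 0.0209). In other fatty acid synthesis (28 of 30 tested), 0 genes were called by limma, with 3 at an unadjusted p under 0.05, beside 20.8% of all genes.

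With pairs, 34 of the 90 genes were called, 18 higher and 16 lower, beside 33.0% of all genes (15.9% higher and 17.1% lower). The medians of the lists were -0.11, 0.06, 0.02 and 0.12 in the order above, beside 0.01 over all genes. Probes of a gene disagreed on the call for ELOVL5 and PDSS2, picked out after their values were seen. For ELOVL5, a fatty acid elongase, the dimmer probe differed by -1.69 (SE 0.22, limma adjusted p = 0.0048) and the brighter one by -0.01. For PDSS2, which makes the tail of coenzyme Q, they differed by 0.46 (SE 0.11, limma adjusted p = 0.0475) and 0.06.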

How the data were processed

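The authors scanned 8 one-colour arrays and extracted spots with Agilent Feature Extraction (11.5.1.1 in the file headers, 12.6 in the submitters' processing notes). The deposited scanner values are linear intensity, background-subtracted and detrended within each array but not scaled between arrays. The authors' series matrix of log2 values, made with GeneSpring per the methods, correlated at 1.00 with the scanner values scaled as below, with KHSRP siRNA columns 3 and 4 exchanged, and served as an alternative. RNA was extracted with RNeasy per the labels and with another reagent per the methods.

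From the processed signal, control spots and outlier-marked spots (265 to 346 an array) were left out. The log2 of each spot was taken, the mean per probe was formed, and the array's 75th percentile was subtracted. Testing required a probe with a share of 0.5 or more of its spots well above background on all 4 arrays of a group. The number of arrays limits the precision. Symbols came from RefSeq accessions (GRCh38.p14) for 27241 of 42405 probes (64.2%), whereas 1061 RefSeq probes stayed unnamed. Groups, taken from the labels, entered a limma 3.58.1 fit under R 4.3.3 (two-sided, Benjamini-Hochberg). Other steps used Python 3.11.15. The fit was tested on simulated data.

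Replicate numbers are shared by both groups. By the check of deviations over all tested probes, every pair of the series matrix numbering correlated above 0.1 (lowest 0.43) and replicates 3 and 4 of the scanner numbering at -0.67 and -0.64, so the blocked fit used the former. Since this check used the same arrays as the fit, p-values with pairs may be too small. The main fit had no block, since the methods name no model for the arrays. They name Student's test for group differences in general, which served as an alternative, called the methods' t-test.

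Every member is accounted for. Values on every array are given for members called without a block, for those called with pairs and changed over 1.5-fold, and for the 3 with the widest spread, and in other lists the called genes are named. A result on 1 gene of the other lists is not reported here. The members and lists were chosen with earlier results of these data known.

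Alternatives covered scaling (quantile, median, detected probes), normexp with an offset of 50, the series matrix, the filter on dim probes, slide and number blocks, array weights, a robust variance with intensity trend, averaged probes, the methods' t-test and leaving out each array.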

Additional observations from a re-analysis of the deposited data

Results flagged for a closer look

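One sample stood far from the others of its group. INSIG1 was at a log2 level of 2.04 on control siRNA replicate 4, and the nearest control array was at 0.40, so that this gap took up 0.862 of the whole range of the group, more than the critical value of Dixon's test for 4 samples. It was the 1 such case among 68 groups of 4 arrays examined (33 members and KHSRP in both siRNA groups), where chance gives about 1 in 20.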

How the results depend on the processing

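Of 33 members, 19 kept the sign of their log2 fold change under all 23 alternatives, and 14 turned under at least 1. The KHSRP call and the sign of IDI1, STARD4, SCAP, TM7SF2 and SQLE held throughout (STARD4 was not tested where all 8 arrays had to be well above background). The 1 member called became 2 with quantile scaling, with the 75th percentile of detected probes, with probes well above background on all 8 arrays, with the slide block, with array weights, with trend and robust variance and with averaged probes, and 0 with no filter on dim probes. It became 5 by the methods' t-test unadjusted, where 19.8% of all tested probes passed, 0 with the replicate block numbered as in the scanner files and 11 with the replicate block of the series matrix. By the methods' t-test with Benjamini-Hochberg adjustment it stayed at 1, which was SCAP and not IDI1. Leaving out 1 array gave 0 to 2 (0 without control 1, control 2, KHSRP 1, KHSRP 2 or KHSRP 4, and 2 without KHSRP 3). With normexp, STARD4 was at -0.47 and IDI1 at -0.97. The 3 genes called in the other lists became 1 without the filter and with the scanner block, 34 with the replicate block of the series matrix, 19 by the methods' t-test unadjusted, 5 with averaged probes, and 1 to 3 on leaving out 1 array, with 1 without control 1, control 2 or KHSRP 1. Over all genes, 33.0% were called with the series matrix block. The median of the members stayed between -0.08 and 0.05 on leaving out 1 array, and was -0.099 with median scaling. The lowest correlation of a same-numbered pair across members turned from -0.89 to 0.71 with the numbers or values of the series matrix.

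With median scaling, which moved the median of all probes from 0.01 to -0.06, HMGCS1 was at -0.038, CYP51A1 at -0.024, SC5D at -0.042, ELOVL6 at -0.055 and FADS1 at -0.0017. The share of calls over all probes that were higher was 17.2% there, 19.2% with the scanner block, 49.3% with the series matrix block, and 34.6% without a block. With normexp, HMGCS1 was at -0.037, ELOVL6 at -0.010 and FADS1 at -0.0085. SC5D was at -0.027 with quantile scaling and at -0.0079 with array weights, and INSIG2 at -0.23 with averaged probes. On leaving out 1 array, the log2 fold changes that turned ranged from -0.17 to 0.082 for ACAT2, -0.12 to 0.28 for HMGCS1, -0.25 to 0.049 for MVK, -0.13 to 0.088 for LSS, -0.13 to 0.23 for CYP51A1, -0.26 to 0.044 for HSD17B7, -0.31 to 0.056 for EBP, -0.15 to 0.18 for SC5D, -0.055 to 0.30 for FASN, -0.056 to 0.11 for ELOVL6, -0.10 to 0.48 for SCD, -0.016 to 0.13 for FADS1 and -0.00015 to 0.16 for FADS2. All of these members missed the threshold, and the cause was not tested. A dim signal limits STARD4, which was well above background on 7 of 8 arrays.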
